A study of Mus musculus with 18 samples.

Results

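Mouse embryonic fibroblasts (MEFs) that had lost Trim28 were compared with wild-type MEFs by sequencing of messenger RNA. MEFs are connective-tissue cells grown from mouse embryos, and both cultures were of the C57BL/6 strain. The wild-type cells were cultured for 5 days. The knockout cells were taken 5 days after a Cre recombinase was switched on by 4-hydroxytamoxifen, the ligand of the inducible enzyme. The sources used here do not say what drives the Cre, whether the wild-type cells also received the drug, or what sex and passage the cells were. Duplicates were pooled before RNA was extracted, per the labels' protocols. Each side is therefore 1 library, and no spread between replicates, p-value or test can be given. These are 2 of the 18 libraries of the study, which otherwise covers RNA and chromatin of embryonic stem (ES) cells.

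Levels are in RPKM as deposited, a unit defined as read numbers divided by transcript length and library size. The sources used here do not say which length and library size the authors divided by. For each gene symbol the transcript with the highest mean level was kept, and a gene counted as measured at 1 RPKM or more in either library, which left 10805 of the 17813 symbols of the MEF table (17870 symbols in the MEF and ES tables together). The 5 measured genes nearest that limit reached 1.002 to 1.005 RPKM in their higher library, and the 5 nearest genes left out reached 0.996 to 0.9998 RPKM. The difference between conditions is log2 of knockout over wild type after adding 1 RPKM to each, called the log2 ratio, and it understates the change of low genes. The same ratio was also centred on the median of genes with a similar span, the genomic distance from a gene's start to its end, in 20 bins of equal gene number. Calls of higher or lower mean a difference of 2-fold or more and rest on size alone.

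TRIM28, also called KAP1, is a corepressor without DNA binding of its own. Zinc finger proteins with a KRAB domain bring it to chromatin, where it recruits the H3K9 methyltransferase SETDB1, heterochromatin protein 1 (HP1) and the NuRD deacetylase complex. It is best known for silencing retroviruses and endogenous retroelements in ES cells and early embryos and for protecting imprints. Fibroblasts are differentiated cells whose main products are the proteins of the extracellular matrix and the contractile cytoskeleton.

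Both libraries carried the RNA of fibroblasts. Of 19 fibroblast and mesenchyme markers, 17 were measured, and they summed to 10611 RPKM in the wild-type library and 10757 RPKM in that of the knockout. Members went both ways, with 12 of 17 below 0 and a median of −0.23 (−0.25 centred). As deposited 1 was higher and 3 lower, beside 0.981% and 4.84% of all measured genes. Abundant members such as S100a4 (945 and 1718 RPKM) and Fn1 (1711 and 613 RPKM) weigh most in the sum. Each list of other cell types had a smaller sum. Skeletal and cardiac muscle markers had the largest of these, 222 and 238 RPKM over 20 genes, most of it the actin gene Acta1 (196 and 211 RPKM), while Myod1 and Myf6, regulators that define muscle cells, were listed at 0 in both. Endothelial markers summed to 25.6 and 17.1 RPKM over 14 genes, with Tie1 and Cldn5 listed at 0 in both. The 4 measured were Flt1 (18.7 and 9.50 RPKM), Eng (3.23 and 4.29 RPKM), Kdr (2.37 and 1.34 RPKM) and Egfl7 (0.946 and 1.55 RPKM). None of the 4 passed 2-fold. Macrophage and leukocyte markers summed to 147 and 178 RPKM over 17 genes, most of it Lyz2 (lysozyme), and the T cell gene Cd3e was listed at 0 in both. Laptm5 (10.3 and 14.0 RPKM), Fcer1g (5.98 and 10.3 RPKM) and Cd14 (5.56 and 9.58 RPKM) were among the 13 measured markers of this list. None of the 13 passed 2-fold, and 11 lay above 0, or 7 after span centring. The list's median log2 ratio of 0.29 was 0.04 after span centring. Of 3 measured neural markers, Tubb3, a tubulin, stood at 36.1 and 81.1 RPKM (log2 ratio 1.15, 0.93 centred), Nes at 42.6 and 30.0 RPKM (log2 ratio −0.49, −0.71 centred) and Stmn2 at 1.74 and 1.1 RPKM (log2 ratio −0.39, −0.06 centred), while Pax6, Gfap and Nefl were listed at 0 in both libraries. No erythroid marker was measured. In bulk RNA, fewer cells of a type and less RNA per cell cannot be told apart.

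The targeted gene was examined first. Trim28 (NM_011588; mm9 chromosome 7, 13609501 to 13616384) stood at 62.8 RPKM in the wild-type library and at 5.84 RPKM in the knockout, so 9.29% of the wild-type level remained. Its log2 ratio was −3.22, or −3.52 after span centring, the lowest of all measured genes under either scaling. The sources used here do not say which exons the Cre removes, and reads from exons outside the deleted part would still be counted.

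The partners of TRIM28 showed few differences of that size. Of 43 genes for TRIM28, its partners and the H3K9 and DNA methylation machinery, 39 were measured, none was higher and 3 were lower, beside 0.981% higher and 4.84% lower among all measured genes. The 3 were lower under both scalings (1.81% of all genes were). Besides Trim28 they were Atrx, a chromatin remodeller of heterochromatin, at 6.22 and 1.3 RPKM (log2 ratio −1.65, −1.20 centred), and Zfp445, a KRAB zinc finger gene that guards imprints, at 6.39 and 1.89 RPKM (log2 ratio −1.35, −1.45 centred). Hells, Smarcad1 and Trim33 had ratios between −0.88 and −0.90 and did not pass 2-fold. The list's median of −0.36 was −0.18 after span centring.

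Across all 10805 measured genes, 106 (0.981%) passed 2-fold upward in the knockout and 523 (4.84%) passed it downward. The other 10176 (94.2%) lay within 2-fold, with the 5th and 95th percentiles of the log2 ratio at −0.99 and 0.76. The genes just past 2-fold had log2 ratios of 1.002 to 1.005 and −1.001 to −1.004, and those just short of it 0.995 to 0.997 and −0.997 to −0.999. After span centring 87 genes (0.805%) were higher and 283 (2.62%) lower. Under both scalings 23 (0.213%) were higher and 196 (1.81%) lower. The scatter plot of the 2 libraries shows lower calls from the lowest levels up to Fn1 and Thbs1, at 1711 and 613 RPKM and 1644 and 710.4 RPKM.

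**Figure D1:**
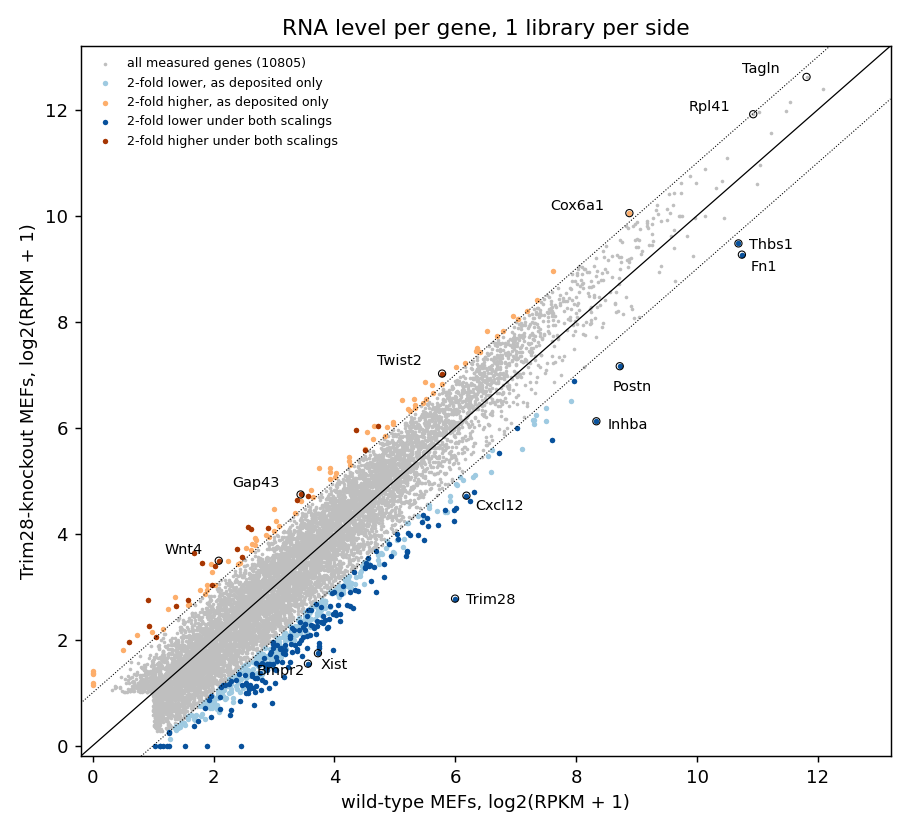
Level of each measured gene in the wild-type MEF library (x axis) and the Trim28-knockout MEF library (y axis), both as log2(RPKM + 1), 1 library per side. The solid line marks equal levels, the dotted lines 2-fold; pale colours mark genes past 2-fold on the deposited values only and dark colours those past it under both scalings, and Trim28 and Inhba lie farthest below the lines among the labelled genes above 5 RPKM in wild type.

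Gene span moved with these calls. The higher genes had a median span of 3.77 kb and the lower genes one of 79.2 kb, against 22.0 kb over all measured genes, and 82 of the 106 higher genes were among the shortest 25% of spans while 352 of the 523 lower genes were among the longest 25%. The median log2 ratio was 0.53 in the shortest bin of span (63 to 2289 bp) and −0.47 in the longest. Across genes, which are not independent replicates, Spearman's correlation of span and log2 ratio was −0.543. It was 0.074 in the pair of ES3 libraries, an ES cell line whose knockout was taken 4 days after the same kind of induction. For each gene group below, the value after span centring therefore stands beside the value as deposited. The part of span in these results was not tested beyond that.

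**Figure D2:**
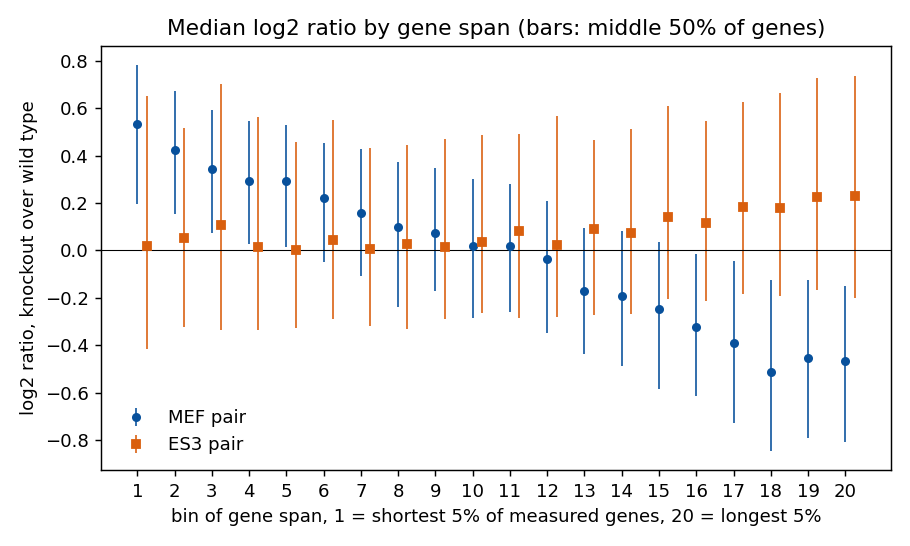
Median log2 ratio, knockout over wild type, in 20 bins of gene span from the shortest to the longest 5% of measured genes, for MEFs (circles) and ES3 cells (squares); bars hold the middle 50% of genes. The MEF medians go from 0.53 in the shortest bin to −0.47 in the longest, and the ES3 medians stay between 0.00 and 0.23.

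Secreted and signalling genes were among those with the lowest ratios. Among the 7355 genes that reached 5 RPKM in either library, the 15 with the smallest span-centred ratios all passed 2-fold under both scalings. Inhba (NM_008380; mm9 chromosome 13, 16103684 to 16119021), the beta A subunit of activin and of inhibin A, stood next to Trim28 at 322 RPKM in the wild-type library and at 68.5 RPKM in the knockout (log2 ratio −2.21, −2.31 centred). Htr1b, a serotonin receptor, stood at 51.5 and 16.8 RPKM (log2 ratio −1.56, −2.09 centred). Cxcl12, the chemokine that binds CXCR4, stood at 71.7 and 25.3 RPKM (log2 ratio −1.47, −1.63 centred). Dnm3os, the noncoding host of the miR-199a and miR-214 hairpins, stood at 6.88 and 1.91 RPKM (log2 ratio −1.44, −1.73 centred).

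Intracellular genes of several kinds were also in this group of 15. Arhgap5, a GTPase-activating protein, stood at 6.78 and 0.747 RPKM (log2 ratio −2.15, −1.76 centred). Ranbp2, a nucleoporin of the cytoplasmic filaments, stood at 12.5 and 2.6 RPKM (log2 ratio −1.90, −1.66 centred). Mdm4, an inhibitor of p53, stood at 6.59 and 1.13 RPKM (log2 ratio −1.83, −1.64 centred). Ddx3x, an X-linked RNA helicase, stood at 45.9 and 16.6 RPKM (log2 ratio −1.42, −1.57 centred). The plot of the 30 genes with the most extreme ratios gives both levels of each.

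**Figure D3:**
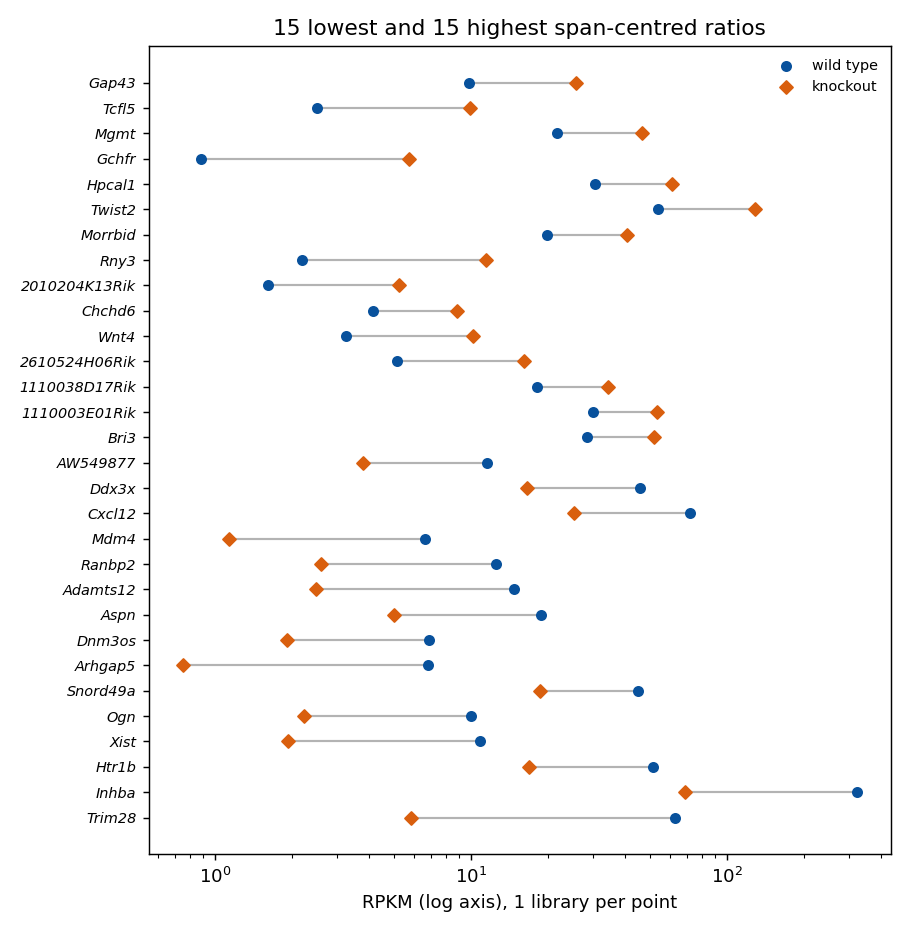
Levels in wild-type (circles) and knockout (diamonds) MEFs on a log axis in RPKM, 1 library per point, for the 15 highest and 15 lowest span-centred ratios among genes that reached 5 RPKM. Trim28 has the widest gap, from 62.8 to 5.84 RPKM, and Inhba is the most abundant of the lower genes, with 322 RPKM in wild type.

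Genes of the extracellular matrix, the network of secreted proteins around cells, held more lower genes as deposited than any other list. Of 35 measured matrix glycoproteins and proteoglycans, none was higher and 13 were lower, beside 4.84% of all genes, and 7 of the 13 were lower under both scalings, beside 1.81%. After span centring 7 were lower, fewer than the 19 small nuclear and nucleolar RNAs and the 12 Zfp genes, 2 larger lists. The list's median log2 ratio was −0.55, and −0.35 after span centring, where the median over all genes is 0.00 under either scaling. The median span of its members was 38.5 kb. Their summed level was 10014 RPKM in the wild-type library and 6685 RPKM in that of the knockout.

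Within the matrix list, the most abundant lower genes were the cell-adhesive glycoproteins. Fn1 (NM_010233; mm9 chromosome 1, 71632094 to 71699746), fibronectin, stood at 1711 RPKM in the wild-type library and at 613 RPKM in the knockout (log2 ratio −1.48, −1.09 centred). Thbs1, thrombospondin, which activates latent TGF-beta, stood at 1644 and 710.4 RPKM (log2 ratio −1.21, −1.31 centred), and Postn, periostin, at 421 and 142 RPKM (log2 ratio −1.56, −1.39 centred). The small leucine-rich proteoglycans Ogn and Aspn lie close together on chromosome 13 and had the lowest ratios of the list. Ogn (NM_008760; mm9 chromosome 13, 49704475 to 49719869) stood at 9.97 and 2.22 RPKM (log2 ratio −1.77, −1.87 centred) and Aspn (NM_025711; mm9 chromosome 13, 49639856 to 49662926) at 18.7 and 5.02 RPKM (log2 ratio −1.71, −1.73 centred). Fbn1, fibrillin of the microfibrils, stood at 78.3 and 26.7 RPKM (log2 ratio −1.52, −1.05 centred), and Has2, a hyaluronan synthase, at 10.6 and 4.45 RPKM (log2 ratio −1.09, −1.06 centred). Hspg2, or perlecan, stood at 94.9 and 34.6 RPKM, and its ratio of −1.43 was −0.92 after span centring. The list was not uniform, since 7 members lay above 0, and the highest ratio was 0.59.

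The collagen list, which leaves out the cartilage collagens Col2a1 and Col10a1, differed less. Of its 18 measured members, 17 lay below 0, but 2 passed 2-fold, both downward, beside 4.84% of all genes. Only Col12a1, a collagen on the surface of fibrils, did so under both scalings, beside 1.81% of all genes, at 193 and 53.7 RPKM (log2 ratio −1.83, −1.37 centred). The median of the collagen list of −0.37 was −0.09 after span centring, and the median span of its members was 82.9 kb. Of the collagens left out, Col10a1 was lower under both scalings (5.99 and 1.95 RPKM; log2 ratio −1.25, −1.54 centred). Col2a1 was lower as deposited only (log2 ratio −1.03, −0.85 centred). Among 48 matrix proteases, inhibitors and crosslinking enzymes, 2 were higher and 6 lower, beside 0.981% and 4.84% of all genes. All 6 were metalloproteases of the ADAM and ADAMTS families, and Adamts12 (14.7 and 2.48 RPKM; log2 ratio −2.17, −1.70 centred), Adam12 (13.9 and 3.69 RPKM; log2 ratio −1.67, −1.20 centred) and Adamts1 (129 and 62.6 RPKM; log2 ratio −1.03, −1.25 centred) stayed past 2-fold after span centring. The 2 higher ones were the stromelysins Mmp10, at 0.898 and 3.79 RPKM (log2 ratio 1.34, 1.04 centred), and Mmp3, at 2.42 and 6.61 RPKM (log2 ratio 1.15, 0.93 centred).

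The 250 bases upstream of the start are shown for 4 lower genes that stand out above, from the RefSeq promoter table of GRCm38.p6, all on the plus strand, with the letters of TATA boxes (TATAAA on either strand) and CCAAT boxes (CCAAT on either strand) in capitals. The regions are chr13:16011601-16011850 for Inhba, chr13:49607765-49608014 for Ogn, chr13:49544193-49544442 for Aspn and chr3:54359017-54359266 for Postn.
Inhba: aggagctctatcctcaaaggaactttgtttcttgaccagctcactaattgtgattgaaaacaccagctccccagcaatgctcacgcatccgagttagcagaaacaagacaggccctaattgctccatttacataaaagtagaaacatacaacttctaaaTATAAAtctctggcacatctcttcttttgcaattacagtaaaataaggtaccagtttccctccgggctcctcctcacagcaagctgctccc
Ogn: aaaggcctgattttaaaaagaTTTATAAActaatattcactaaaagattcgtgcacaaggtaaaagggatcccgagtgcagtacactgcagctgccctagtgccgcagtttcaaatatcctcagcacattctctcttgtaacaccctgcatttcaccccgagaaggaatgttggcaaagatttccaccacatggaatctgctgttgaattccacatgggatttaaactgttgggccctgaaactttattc
Aspn: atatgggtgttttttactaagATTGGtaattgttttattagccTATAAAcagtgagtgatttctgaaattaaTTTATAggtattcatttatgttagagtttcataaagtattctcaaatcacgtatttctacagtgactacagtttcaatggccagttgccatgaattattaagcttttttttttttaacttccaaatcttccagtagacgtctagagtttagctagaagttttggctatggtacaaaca
Postn: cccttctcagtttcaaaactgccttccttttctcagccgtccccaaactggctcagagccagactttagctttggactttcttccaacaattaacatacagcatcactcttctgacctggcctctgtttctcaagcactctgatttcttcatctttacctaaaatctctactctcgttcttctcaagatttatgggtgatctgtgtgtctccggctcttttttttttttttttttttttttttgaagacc
TATA letters are in 3 of the 4, at 91 bases before the start in Inhba and farther away in Ogn and Aspn, and Postn holds none of the letters searched. The CpG counts of the 4 are 3, 4, 2 and 3. Of the 35 matrix glycoprotein genes, 24 had a promoter in that table. Over windows from 250 bases before to 50 bases after the start, 6 of the 24 (25%) held a TATA box on either strand, against 6.74% of the 7642 measured genes with a promoter, and their median number of CpG pairs was 9.5 against 22. Among all 27025 promoters of the table the TATA share was 14.2%. A CCAAT box was in 11 of the 24 (45.8%), against 39.3% of measured genes and 38.0% of all promoters, and an AP-1 site (TGACTCA on either strand) in 1 (4.17%), against 3.31% and 5.17%. A match is a description of the letters and not of a factor bound there.

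Ligands and receptors of the TGF-beta superfamily, secreted signals that control matrix production, had lower members on both sides. Of 22 measured ligands and antagonists, none was higher and 2 were lower under either scaling, beside 4.84% of all genes as deposited and 2.62% after centring. They were Inhba and Grem1, the BMP antagonist gremlin, which stood at 43.3 and 19.5 RPKM (log2 ratio −1.11, −1.27 centred). The other ligands lay within 2-fold, and Tgfb3 (65.3 and 39.5 RPKM; log2 ratio −0.71, −0.73 centred) and Inhbb (3.99 and 2.22 RPKM; log2 ratio −0.63, −0.93 centred) had ratios below 0. The median of this list was −0.23, and −0.30 after span centring.

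Of 28 measured receptors and Smads, none was higher and 4 were lower, beside the same 4.84%. Bmpr2, the type II BMP receptor, stood at 12.2 and 2.35 RPKM (log2 ratio −1.98, −1.47 centred), and Skil, a corepressor of Smads that TGF-beta signalling induces, at 8.85 and 3.68 RPKM (log2 ratio −1.07, −1.04 centred). These 2 were lower under both scalings, beside 1.81% of all genes. Bmpr1a (16.6 and 6.38 RPKM; log2 ratio −1.25, −0.74 centred) and Tgfbr1 (5.66 and 2.11 RPKM; log2 ratio −1.10, −0.77 centred), type I receptors, passed 2-fold only as deposited. The receptor list's median of −0.28 turned to 0.04 after span centring, with 8 of 28 above 0 as deposited and 15 after it.

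Adhesion receptors were lower in part. Of 29 measured integrins and other adhesion genes, 6 were lower and none was higher, and 3 integrin alpha chains passed 2-fold under both scalings, beside 4.84% and 1.81% of all genes. They were Itgav, part of the vitronectin receptor (63.6 and 21.5 RPKM; log2 ratio −1.52, −1.01 centred), Itga4 (9.91 and 2.97 RPKM; log2 ratio −1.46, −1.07 centred) and Itga8 (13 and 3.97 RPKM; log2 ratio −1.49, −1.02 centred). Itga11, a collagen receptor chain of fibroblasts, stood at 56.9 and 20.3 RPKM, and its ratio of −1.44 was −0.93 after span centring. The list's medians were −0.47 and −0.29.

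Actin and contractile genes, by contrast, had medians of −0.0011 and −0.02, with 19 of 38 above 0 and 19 below. The 3 lower ones (4.84% of all genes were lower) included Vcl, vinculin of focal adhesions (log2 ratio −1.15, −0.64 centred), and Myh10, a nonmuscle myosin (log2 ratio −1.08, −0.63 centred). None of the 3 stayed past 2-fold after span centring. Tagln, an actin-binding protein of contractile cells, stood at 3592 RPKM in the wild-type library and at 6273 RPKM in the knockout (log2 ratio 0.80, 0.51 centred). Of 19 Hippo pathway genes and targets none passed 2-fold as deposited, with a median of −0.38 (−0.19 centred). After centring 1 was lower, Tead1 (log2 ratio −0.88, −1.22 centred), beside 2.62% of all genes.

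Growth factor genes and their receptors each had 3 lower members and no higher one, of 23 and 21 measured, beside 0.981% higher and 4.84% lower among all genes. The growth factors were Fgf7 (log2 ratio −1.05, −0.73 centred), Pdgfd (log2 ratio −1.04, −0.58 centred) and Nrg1 (log2 ratio −1.01, −0.54 centred). The receptors were Il6st (log2 ratio −1.15, −0.90 centred), Egfr (log2 ratio −1.04, −0.58 centred) and Ddr2 (log2 ratio −1.01, −0.55 centred). None of the 6 stayed past 2-fold after span centring. In the Wnt list of 26, Wnt4, a secreted Wnt ligand, was higher under both scalings, at 3.24 and 10.2 RPKM (log2 ratio 1.40, 1.38 centred), while the receptor gene Lrp6 (log2 ratio −1.45, −0.999 centred) and the scaffold gene Apc (log2 ratio −1.13, −0.62 centred) were lower as deposited. Wnt5a stood at 39.1 and 23.3 RPKM and did not pass 2-fold (log2 ratio −0.72, −0.74 centred).

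Motor genes that carry cargo along the cytoskeleton were lower in part. Of 41 kinesin, dynein and myosin motor genes, 5 were lower, beside 4.84% of all genes, and Kif5b, a heavy chain of conventional kinesin (35.6 and 11.8 RPKM; log2 ratio −1.51, −1.32 centred), and Myo5a (10.7 and 3.22 RPKM; log2 ratio −1.47, −1.01 centred) were so under both scalings, beside 1.81%. The list's median of −0.58 was −0.19 after centring, and its median span was 67.7 kb.

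In the opposite direction, most genes of the respiratory chain, the ribosome and the proteasome had ratios above 0, mainly by less than 2-fold. Of 80 measured nuclear genes of the respiratory chain, 77 lay above 0, against 50.3% of all genes, and 74 did after span centring, against 50% of all genes. Their median log2 ratio was 0.70, and 0.43 after the centring. As deposited 10 were higher, beside 0.981% of all genes, and none lower, and 1 was higher after centring, beside 0.805%. Cox6a1 (NM_007748; mm9 chromosome 5, 115795651 to 115798990), a subunit of cytochrome c oxidase, stood at 470.0 RPKM in the wild-type library and at 1056 RPKM in the knockout (log2 ratio 1.17, 0.74 centred). Atp5e of the ATP synthase stood at 123 and 274 RPKM (log2 ratio 1.15, 0.73 centred), Uqcr11 of complex III at 81.1 and 180.0 RPKM (log2 ratio 1.14, 0.80 centred) and Ndufa11 of complex I at 17.9 and 40.1 RPKM (log2 ratio 1.12, 0.78 centred). The summed level of the list was 7521 RPKM in the wild-type library and 12816 RPKM in that of the knockout, while the sum over all symbols was 308887 and 369572 RPKM.

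Ribosomal protein genes of the cytosol had the same median as the respiratory chain, 0.70, but less of it was left after span centring (0.24). Of 79 measured, 77 lay above 0 and 68 did after centring. As deposited, only Rpl39l (14.1 and 36.9 RPKM; log2 ratio 1.32, 0.98 centred) passed 2-fold. After centring only the entry labelled Rpl10 did, downward (3.42 and 1.95 RPKM; log2 ratio −0.58, −1.01 centred). An entry labelled Rpl10l (NM_052835, chromosome X) stood at 55.3 and 80.2 RPKM (log2 ratio 0.53, 0.10 centred). Its transcript carries another symbol in the reference, so which entry gives the level of Rpl10 is uncertain. Rpl41, the most abundant of those named, stood at 1948 and 3852 RPKM (log2 ratio 0.98, 0.45 centred). Their median span was 3.08 kb. Many have processed pseudogenes, so how reads were shared between copies could affect these levels, and the sources used here do not describe the counting.

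Mitochondrial ribosomal protein genes had medians of 0.55 and 0.29, with 71 of 76 above 0 and none past 2-fold as deposited. After centring 66 lay above 0 and 4 were higher, beside 0.805% of all genes. Proteasome subunits had medians of 0.53 and 0.38, with 32 of 36 above 0 as deposited and 33 after centring, and none past 2-fold. Psmb4 (187 and 353 RPKM; log2 ratio 0.92, 0.49 centred) and Psmb1 (124 and 217 RPKM; log2 ratio 0.80, 0.78 centred) are examples. The proteasome genes had a median span of 12.3 kb, longer than the ribosomal protein genes. Across all genes the log2 ratio also went with the level, with a Spearman's correlation of mean RPKM and log2 ratio of 0.346, and 0.263 after span centring, and the part of the high level of these genes was not tested.

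Housekeeping genes lay on the same side, with 16 of 19 above 0 and medians of 0.34 and 0.21. Ppia, a peptidyl-prolyl isomerase, stood at 499 and 747 RPKM (log2 ratio 0.58, 0.24 centred). Tfrc, the transferrin receptor that takes up iron, was the only one past 2-fold and was lower, at 11.1 and 3.24 RPKM (log2 ratio −1.52, −1.54 centred).

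**Figure D4:**
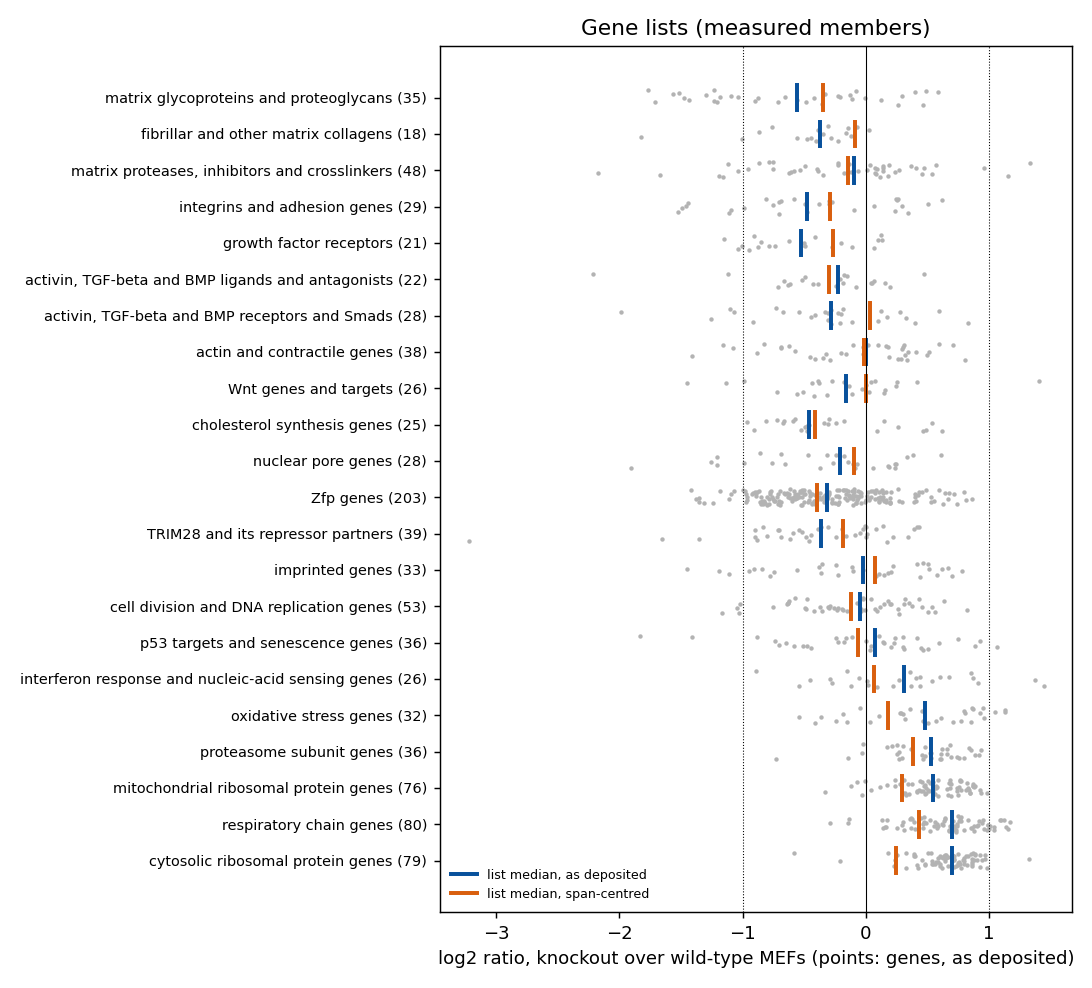
Log2 ratios, knockout over wild-type MEFs, of the measured genes in 22 of the lists (grey points, as deposited; measured members in parentheses), with each list's median as deposited (blue) and after span centring (orange); dotted lines mark 2-fold. Matrix glycoproteins lie lowest among the matrix lists on the deposited medians, at −0.55, and respiratory chain and cytosolic ribosomal protein genes lie highest, at 0.70.

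Upstream sequences of 3 of these genes are shown for comparison with the lower matrix genes, with the letters of the palindromic NRF1 site, ETS sites (CCGGAAG on either strand), CCAAT boxes and TATA boxes in capitals. NRF1 and ETS factors are known regulators of genes for respiration and ribosomes. In GRCm38.p6 the regions are chr5:115348959-115349208 on the minus strand for Cox6a1, chr10:80406822-80407071 on the minus strand for Uqcr11 and chr17:24719813-24720062 on the plus strand for the ribosomal protein gene Rps2, which stood at 75.6 and 149 RPKM (log2 ratio 0.97, 0.54 centred).
Cox6a1: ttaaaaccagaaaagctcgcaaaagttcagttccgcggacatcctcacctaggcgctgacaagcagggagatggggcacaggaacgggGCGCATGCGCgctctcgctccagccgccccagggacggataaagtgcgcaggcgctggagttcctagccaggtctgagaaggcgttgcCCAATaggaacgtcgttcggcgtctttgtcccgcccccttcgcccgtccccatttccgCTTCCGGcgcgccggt
Uqcr11: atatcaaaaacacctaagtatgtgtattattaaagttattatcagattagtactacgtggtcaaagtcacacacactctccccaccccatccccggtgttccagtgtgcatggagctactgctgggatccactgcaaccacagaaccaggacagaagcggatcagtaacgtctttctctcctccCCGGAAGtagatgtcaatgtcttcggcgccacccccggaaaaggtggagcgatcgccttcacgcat
Rps2: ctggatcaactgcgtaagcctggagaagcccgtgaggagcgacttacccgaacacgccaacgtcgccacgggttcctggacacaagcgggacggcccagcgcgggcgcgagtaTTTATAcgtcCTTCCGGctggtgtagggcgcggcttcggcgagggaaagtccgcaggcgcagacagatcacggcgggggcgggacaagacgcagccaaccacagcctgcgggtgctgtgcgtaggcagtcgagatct
Each of the 3 holds an ETS match, and Cox6a1 holds an NRF1 match 162 bases before the start. Their CpG counts are 26, 11 and 29, above those of Inhba, Ogn, Aspn and Postn. Over the windows used for the matrix list, genes called lower and higher did not show this contrast as sets. Median CpG counts were 22 for 135 promoters of genes lower under both scalings, 18 for 19 higher under both, and 22 for measured genes. TATA letters were in 8.15%, 10.5% and 6.74% of these, ETS letters in 14.1%, 5.26% and 19.4%, and NRF1 letters in 1.48%, 0% and 2.25%. ETS letters were found in 21 of 58 ribosomal protein promoters (36.2%) and in 15 of 65 respiratory chain promoters (23.1%), against 19.4% of measured genes and 9.14% of all promoters. NRF1 letters were in 5 of 65 respiratory chain promoters (7.69%), against 2.25% of measured genes and 0.981% of all promoters. They were in 1 of 58 ribosomal protein promoters (1.72%), and in 9 of 150 Zfp promoters (6%), which are not of these groups.

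Few stress and immune genes passed 2-fold after span centring. Oxidative stress genes had a median of 0.48 (0.18 centred), with 3 of 32 higher as deposited, beside 0.981% of all genes. They were the metallothioneins Mt1 (163 and 337 RPKM; log2 ratio 1.05, 0.51 centred) and Mt2 (28.3 and 63.2 RPKM; log2 ratio 1.13, 0.60 centred) and the glutathione transferase Gstp1 (63.4 and 139.6 RPKM; log2 ratio 1.13, 0.70 centred), and none stayed past 2-fold after centring. Of 26 interferon response and nucleic-acid sensing genes, 2 were higher as deposited only, beside 0.981% of all genes. They were Isg15 (1.57 and 5.98 RPKM; log2 ratio 1.44, 0.91 centred) and Bst2 (22.3 and 59.2 RPKM; log2 ratio 1.37, 0.94 centred). The list's median of 0.31 became 0.07. No antigen processing, immediate early or unfolded protein response gene passed 2-fold under either scaling, of 17, 28 and 29 measured. The medians changed sign with centring, from 0.17 to −0.20 for immediate early genes and from 0.17 to −0.08 for unfolded protein response genes.

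Single genes of these programmes were lower under both scalings, as 1.81% of all genes were. Among 19 secreted inflammatory genes they were Cxcl12 and Ptgs2, the inducible prostaglandin synthase, which stood at 105 and 44.8 RPKM (log2 ratio −1.20, −1.50 centred). The monocyte chemokine Ccl2 stood at 41.3 and 62.6 RPKM and did not pass 2-fold (log2 ratio 0.59, 0.06 centred). Among 24 heat shock and chaperone genes it was Hsp90aa1, the inducible cytosolic HSP90, at 249.9 and 117 RPKM (log2 ratio −1.09, −1.25 centred), while Hspb1 and Cryab lay above 0 (0.61 and 0.87).

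Genes of p53 and of cell division gave no common direction. Of 36 p53 targets and senescence genes, 1 was higher and 2 lower, beside 0.981% and 4.84% of all genes, with medians of 0.07 and −0.06. Mdm4 and Trp53inp1 (15.6 and 5.26 RPKM; log2 ratio −1.41, −1.48 centred) were lower under both scalings. Bax, a mediator of apoptosis, and Phlda3 lay above 0 without passing 2-fold (0.93 and 0.89). Of 53 genes for cell division and DNA replication, with medians of −0.05 and −0.12, 4 were lower as deposited and none after centring. The shares of all genes were 4.84% and 2.62%. Medians aside, no cell division gene called lower stayed past 2-fold. The 4 lower genes included the mitotic kinesins Cenpe (log2 ratio −1.17, −0.85 centred) and Kif11 (log2 ratio −1.05, −0.80 centred) and the topoisomerase Top2a (log2 ratio −1.03, −0.86 centred).

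Cholesterol synthesis genes lay below 0 under both scalings, with 18 of 25 below it in each and medians of −0.46 and −0.41, although none passed 2-fold as deposited. Idi1, which makes dimethylallyl diphosphate, stood at 13.7 and 6.85 RPKM (log2 ratio −0.91, −1.20 centred). Glycolysis and hypoxia genes had medians of 0.15 and 0.11. Hif1a, the oxygen-regulated transcription factor, was the 1 gene past 2-fold and was lower (22 and 9.68 RPKM; log2 ratio −1.10, −0.86 centred).

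Among nuclear genes, 4 of 28 nucleoporins were lower, beside 4.84% of all genes. Ranbp2 was so under both scalings (1.81% of all genes were), and Tpr (log2 ratio −1.26, −0.93 centred), Nup98 (log2 ratio −1.21, −0.69 centred) and Nup153 (log2 ratio −1.20, −0.96 centred) only as deposited. Splicing genes had medians near 0 (0.04 and −0.07), with the kinase gene Prpf4b lower under both scalings (12.1 and 4.12 RPKM; log2 ratio −1.36, −1.32 centred). Of 203 genes named Zfp, many of which encode the KRAB proteins that bind TRIM28, none was higher and 10 were lower, a share close to the 4.84% of all genes. Under both scalings 5 of the 10 were lower, beside 1.81%, and after centring 12 were, beside 2.62%. The Zfp median of −0.32 was −0.40 after centring. Zfp871 (5.43 and 1.41 RPKM; log2 ratio −1.42, −1.51 centred) had the lowest ratio as deposited, and Zfp715 stood at 5.22 and 1.5 RPKM (log2 ratio −1.31, −1.39 centred). As a group these genes are low in MEFs, with a summed level of 1065 and 941 RPKM.

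Imprinted genes, whose silent allele TRIM28 protects in early embryos, had medians of −0.02 and 0.08. Of 33 measured, 3 were lower as deposited, beside 4.84% of all genes. After centring 1 was higher and 2 were lower, beside 0.805% and 2.62%. Peg3, a paternally expressed zinc finger gene, was lower under both scalings at 12.1 and 3.79 RPKM (log2 ratio −1.45, −1.41 centred). Meg3, a maternally expressed noncoding RNA, stood at 60.7 and 31.8 RPKM and did not pass 2-fold (log2 ratio −0.91, −0.74 centred). Of 30 measured Hox genes none passed 2-fold as deposited, and their median of 0.17 turned to −0.25 after centring. After centring 1 was lower, Hoxa6 (1.56 and 0.352 RPKM; log2 ratio −0.92, −1.26 centred), beside 2.62% of all genes. Histone genes, of which 56 were measured, had a median of 0.68 that became 0.19, and their median span was 0.58 kb. Small nuclear and nucleolar RNA genes held 7 higher and 12 lower genes of 50 as deposited, beside 0.981% and 4.84% of all genes. After span centring the split was 1 and 19, beside 0.805% and 2.62%, and under both scalings 1 and 12. All 14 measured genes that were listed at 0 in either library were small RNA genes, among them Snord87, at 4.48 RPKM in wild type and listed at 0 in the knockout. Such short RNAs are poorly captured in libraries of messenger RNA.

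Most genes of the germline, the two-cell stage and pluripotency were at or near 0 in both MEF libraries. Of 30 germline genes in the table, 2 were measured, and 14 were listed at 0 in both libraries. Of these 2, Tdrkh stood at 3.14 and 2.39 RPKM (log2 ratio −0.29, −0.36 centred), while Rpl10l is uncertain because its transcript carries another symbol in the reference. Of 21 two-cell stage genes, 2 were measured, Eif1a (log2 ratio −0.70, −0.86 centred) and Ddit4l (log2 ratio 0.40, 0.05 centred), and Zscan4d and Zscan4f were listed at 0 in both. Pou5f1 and Zfp42, which mark ES cells, were listed at 0 in both libraries. Nanog stood at 0.967 and 1.65 RPKM (log2 ratio 0.43, 0.14 centred). In the primitive endoderm list, 20 of 21 measured genes were higher in the ES3 knockout (12.5% of all ES3 genes were). Members such as Dab2 (0.327 and 12.9 RPKM in ES3 wild type and knockout) passed the filter there only through the knockout and could not be lower. In MEFs 1 of 11 measured members of the list was higher and 1 lower, beside 0.981% and 4.84% of all genes. They were Apoe, apolipoprotein E (24.2 and 64.2 RPKM; log2 ratio 1.37, 0.95 centred), and the laminin gene Lamc1 (43.4 and 18.5 RPKM; log2 ratio −1.19, −0.73 centred), both past 2-fold only as deposited. Apoe was the 1 gene of the list lower in the ES3 knockout (ES3 log2 ratio −1.64).

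The 23 genes higher under both scalings came from several lists or from none. Ordered by the centred ratio, they began with Gap43, a protein of growing nerve endings (9.85 and 25.7 RPKM; log2 ratio 1.30, 1.81 centred), Tcfl5, a basic helix-loop-helix factor (2.49 and 9.93 RPKM; log2 ratio 1.65, 1.63 centred), and Mgmt, which removes alkyl groups from guanine in DNA (21.7 and 46.6 RPKM; log2 ratio 1.07, 1.54 centred). Gchfr, the feedback regulator of GTP cyclohydrolase, stood at 0.878 and 5.72 RPKM (log2 ratio 1.84, 1.49 centred). Twist2, a transcription factor of mesenchyme, was the most abundant of them (NM_007855; mm9 chromosome 1, 93698038 to 93744605), at 54 RPKM in the wild-type library and at 129 RPKM in the knockout (log2 ratio 1.24, 1.49 centred). Wnt4, Mmp10 and the Y RNA gene Rny3 are also among the 23.

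Several others of the 23 fall outside the naming rule, and only some of them are given here. Scand1 stood at 19.4 and 61.4 RPKM (log2 ratio 1.61, 1.08 centred), Dgcr6 at 10.8 and 25.2 RPKM (log2 ratio 1.15, 1.13 centred) and Ethe1 at 6.43 and 16.2 RPKM (log2 ratio 1.21, 1.19 centred). Lgals3, galectin-3, stood at 25.4 and 64 RPKM (log2 ratio 1.30, 1.23 centred). Alox5ap, which presents arachidonic acid to 5-lipoxygenase, stood at 4.56 and 10.7 RPKM (log2 ratio 1.08, 1.06 centred), and Tbxas1, thromboxane synthase, at 1.07 and 3.16 RPKM (log2 ratio 1.01, 1.47 centred). Ube2l6, the conjugating enzyme of the ubiquitin-like ISG15, stood at 3.07 and 9.48 RPKM (log2 ratio 1.36, 1.21 centred). Of the 15 largest centred ratios at 5 RPKM or more, 9 passed 2-fold under both scalings. The others, such as Hpcal1 (log2 ratio 0.98, 1.49 centred), Chchd6 (log2 ratio 0.93, 1.40 centred) and Bri3 (log2 ratio 0.85, 1.31 centred), passed it only after centring, and 8 of the 15 span more than 50 kb.

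X-linked genes lay below the others as a group. The 334 measured X-linked genes had a median of −0.18 under either scaling, and 221 of them (66.2%) lay below 0 after centring, against 49.5% of 10471 autosomal genes. The centred medians of the 19 autosomes lay between −0.11 and 0.09. Of the X-linked genes 33 (9.88%) were lower as deposited, against 4.68% of autosomal genes. Xist (NR_001463; mm9 chromosome X, 100655714 to 100678556), the noncoding RNA that coats and silences an X chromosome in female cells, stood at 10.8 RPKM in the wild-type library and at 1.92 RPKM in the knockout (log2 ratio −2.02, −2.03 centred). Tsix, its antisense partner, stood at 2.46 and 0.468 RPKM (log2 ratio −1.24, −0.91 centred). The counting is not stated to use strand, so reads of Xist and Tsix cannot be told apart. Besides Ddx3x and Atrx, Flna, filamin A, stood at 495 and 268 RPKM without passing 2-fold (log2 ratio −0.88, −0.85 centred). In the ES3 pair the centred median of 390 X-linked genes was 0.16. The share of female cells in each MEF culture is not given, and its part in these values was not tested.

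The MEF ratios were set beside those of ES3 cells, a different cell type with its own control library. Of the 106 genes higher in MEFs, 90 were measured in ES3 cells, where 23 (25.6%) were higher and 5 (5.56%) lower, against 11.1% and 1.90% of the 9932 genes measured in both. Wnt4 (ES3 log2 ratio 2.55), Gap43 (1.06) and Twist2 (1.02) were higher in both pairs. Gap43 stood at 9.89 and 21.8 RPKM in the ES3 wild type and knockout. Wnt4 (0.140 and 5.66 RPKM) and Twist2 (0 and 1.03 RPKM) passed the ES3 filter only through the knockout, so they could not be lower there. Of the 523 lower genes, 460 were measured in ES3 cells, where 61 (13.3%) were higher and 11 (2.39%) lower. Over all 12024 genes measured in ES3 cells the shares were 12.5% and 3.18%. The matrix glycoprotein list, with 13 of 35 lower in MEFs, had 14 of 25 higher and none lower in ES3 cells, where its median was 1.05. Some members passed the filter in ES3 cells only through the knockout and could not be lower there. Examples are Thbs1 (0.279 RPKM in ES3 wild type and 21.9 RPKM in the knockout), Has2 (0.284 and 4.92 RPKM) and Fbn1 (0.717 and 2.51 RPKM). The filter thus partly fixed the ES3 counts and median of this list.

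Chromatin was mapped only in ES cells, so its regions describe where the MEF genes lie and not what was bound in fibroblasts. A gene was counted as near a region when its start lay within 20 kb. Of the 106 higher genes, 27 (25.5%, Wilson 95% interval 18.1 to 34.5) started near an H3K9me3 region found in wild-type but not in knockout ES3 cells, against 1556 (14.4%) of all measured genes. Of the 523 lower genes, 63 (12.0%, 9.53 to 15.1) did. For the 23 genes higher under both scalings the number was 8 (34.8%, 18.8 to 55.1), Tcfl5, Twist2 and Mmp10 among them, and for the 196 lower under both it was 20 (10.2%, 6.70 to 15.2). Shares near TRIM28 peaks of ES3 cells were 7.55% of the higher and 6.31% of the lower genes, against 6.86% of all. The intervals cover counting error only, neighbouring genes can share a region, and the part of the short span of the higher genes in these shares was not tested.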

How the data were processed

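RNA of 2 MEF libraries was analysed, beside 2 ES3 libraries and regions from ES3 chromatin; other libraries of the study were not used here. Duplicates were pooled before extraction, per the labels' protocols. Bowtie is the tool and mm9 the build named in the submitters' processing notes, and the sources used here do not name the read counter, its use of strand or what RPKM was divided by. The authors deposited RPKM per RefSeq transcript, in 22630 rows for MEFs, with a ratio of knockout to wild-type RPKM. That deposited ratio equals the quotient of the 2 columns within 0.1% in all 19593 rows that hold it and was not used further. Columns of the ES table were read as the ES3 pair, the one pair of ES libraries labelled as wild type and knockout. The TRIM28 peaks carry a score that the authors deposited without stating its scale, and the H3K9me3 regions are starts and ends alone. Only positions of both were used.

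Read depth per library is unknown. Of 1502 genes above 0 but under 0.1 RPKM in both MEF libraries, 161 had the same knockout to wild-type ratio of 0.9769, and 613 (40.8%) lay within 0.2% of it times a ratio of whole numbers up to 6.

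Of the MEF rows 778 have no symbol and 39 have a calendar date in its place. These took the reference symbol of their transcript or the transcript's name. In all, 22105 rows matched the RefSeq gene table of GRCm38.p6, used for names alone, and 346 of them carry another symbol there. Log2 ratios used a pseudocount of 1 RPKM and were also centred within 20 bins of deposited gene span, which changes a gene's value with the genes it is binned with. A gene that passed the filter only in the library where it is high had to differ. Calls are 2-fold by size, with no test, since each side is 1 library.

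The members and the 54 gene lists were chosen with earlier results of these data known, so no list is independent support. Genes named are Trim28, the 15 largest and 15 smallest centred ratios at 5 RPKM or more, the 6 members of each list farthest from 0 as deposited, and further list members past 2-fold under both scalings. Other names, given as background or as further members of a group, were chosen after their values were seen. Promoters came from the RefSeq table of GRCm38.p6, matched by symbol with the 5′-most start per gene. Alternatives were other pseudocounts, filters, bin numbers, centring on the median, RPKM summed over the rows of a symbol and a 3-fold threshold. Span centring was run on simulated ratios with known changes well past 2-fold, so that run does not bear on calls near the threshold. Python 3.11.15, pandas 2.3.3, NumPy 2.4.6, SciPy 1.17.1 and matplotlib 3.10.9 were used.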

Additional observations from a re-analysis of the deposited data

Results flagged for a closer look

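In 10 of the named genes that are not small RNAs the MEF knockout was past 2-fold lower under both scalings while the ES3 knockout was past 2-fold higher. The named genes were chosen largely by their MEF ratios, so this number gives no share of genes. Of all 460 genes lower in MEFs as deposited and measured in ES3 cells, 61 (13.3%) were higher there. Among the 9932 genes measured in both the share was 11.1%. Each pair has 1 library per condition, so the difference between the cell types was not tested.

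The matrix and adhesion genes of the flagged group were Thbs1, with a log2 ratio of −1.21 in MEFs and 4.16 in ES3 cells, Fbn1 (−1.52 and 1.03), the hyaluronan synthase Has2 (−1.09 and 2.21) and the integrin chain Itgav (−1.52 and 1.59). The signalling genes were the BMP receptor Bmpr2 (−1.98 and 1.07) and the prostaglandin synthase Ptgs2 (−1.20 and 2.06). The imprinted gene Peg3 stood at −1.45 and 1.51. Solute carriers complete the group, the sulfate transporter Slc26a2 (−1.01 and 2.01), the zinc transporter Slc30a4 (−1.03 and 1.29) and the amino acid transporter Slc36a4 (−1.44 and 1.44). In the ES3 wild type, Thbs1 (0.279 RPKM), Fbn1 (0.717 RPKM), Has2 (0.284 RPKM), Ptgs2 (0.223 RPKM) and Slc36a4 (0.239 RPKM) were under the filter of 1 RPKM. These genes passed the ES3 filter only through the knockout, so they could not be lower there. Of the small RNA genes, Snord87 stood at −2.45 and 2.01, and Rny3 went the other way, at 1.96 and −1.34. Snord87 is listed at 0 in the MEF knockout and the ES3 wild type, and Rny3 in the ES3 knockout.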

How the results depend on the processing

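With 1 library per side, no library could be left out in turn. No paired analysis was possible because each condition is 1 pooled library. The counts of 106 higher and 523 lower genes changed with the pseudocount: they were 218 and 1053 with 0.1 RPKM, and 35 and 87 with 5 RPKM, where 71.3% of the calls were lower in place of 83.1%. A 3-fold threshold left 4 higher and 41 lower genes. Span centring took the lower genes to 283 (20 bins), 280 (10 bins) and 291 (50 bins). Spearman's correlation of span and log2 ratio, −0.543, was then 0.023, 0.021 and 0.024 by construction, and −0.407 with no filter. The other settings, including 2 chosen after seeing the data (small RNA genes left out; symbols that share coordinates or differ from the reference left out), kept both counts within 1.5 times.

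No named gene past 2-fold changed sign under any of these settings. Of 49 list medians, 37 moved by over 0.1 with span centring in 20 bins, 20 with no filter, 17 with a pseudocount of 5 RPKM, 10 with a filter at 5 RPKM, 5 with a pseudocount of 0.1 RPKM and 0 with RPKM summed over rows or with centring on the median. Medians of Hox, immediate early, unfolded protein response, translation factor, spliceosome and p53 genes and of muscle markers turned from above to below 0 in 10, 20 and 50 bins. That of imprinted genes turned from below to above 0. Some other list medians, that of secreted inflammatory genes among them, changed sign in only some of these bin numbers. Since depth is unknown, no limit of detection can be given for genes of low level.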

Other observations

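Solute carriers, which move small molecules across membranes, were mostly within 2-fold in MEFs. Of 151 measured, none was higher and 8 were lower, 5 of them under both scalings, beside 4.84% and 1.81% of all genes, and the list's medians were −0.15 and −0.07. The lowest ratio was that of Slc36a4, at 4.9 and 1.17 RPKM (log2 ratio −1.44, −1.27 centred). Slc25a36, a mitochondrial carrier of pyrimidine nucleotides, stood at 8.67 and 2.77 RPKM (log2 ratio −1.36, −1.17 centred), and Slc5a7, the choline transporter, at 5.54 and 1.95 RPKM (log2 ratio −1.15, −1.17 centred).

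Genes of cartilage, bone and fat were low in both libraries, with 8 of 19 measured and summed levels of 27.4 and 21.8 RPKM. Col10a1, the collagen of hypertrophic cartilage, was lower under both scalings, at 5.99 and 1.95 RPKM (log2 ratio −1.25, −1.54 centred). Col2a1, the collagen of hyaline cartilage, stood at 1.99 and 0.471 RPKM and was past 2-fold as deposited only (log2 ratio −1.03, −0.85 centred). Translation factor genes had medians of 0.14 and −0.03. Eif2c2, an Argonaute gene that the name pattern places there, was the 1 of 60 past 2-fold under both scalings (19.2 and 6.69 RPKM; log2 ratio −1.39, −1.003 centred).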
